A study of Mus musculus with 16 samples.

Results

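The deposited arrays labelled Tgif1 OE were set directly against those labelled Tgif2 OE, so that cells overexpressing one or the other of a pair of paralogous homeobox genes were compared without passing through a control. These were 8 of the 16 arrays of the series, 4 per group, and they were chosen by their labels alone. All groups were mouse J1 embryonic stem (ES) cells, cultured without feeders on gelatin in serum medium with leukaemia inhibitory factor (LIF). The groups used were Tgif1 OE (overexpressing Tgif1, 4 arrays), Tgif2 OE (overexpressing Tgif2, 4 arrays) and BirA control (4 arrays), which gave a level for each gene from the same arm of the study. BirA is a bacterial biotin ligase, and the labels do not say whether the Tgif1 OE and Tgif2 OE cells also carried it. The sources used here do not give the promoter that drove each transgene, the number of clones or the time of overexpression. The other 4 arrays of the series, from a knockdown experiment, were not compared. They entered the quantile normalization, the choice of probe set for each gene and the estimate of spread.

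Tgif1 and Tgif2 belong to the TALE class of homeodomain proteins. Both are known as transcriptional repressors that bind DNA at short sites with the core TGTCA, or are brought to DNA by Smad2 and Smad3 after TGF-beta or Nodal signalling, and both recruit histone deacetylase corepressor complexes. Tgif1, unlike Tgif2, also has a site that binds the corepressor CtBP. In ES cells the Smad2 and Smad3 branch is fed by Nodal made by the cells themselves, and LIF with serum holds the cells in a naive-like state in which Pou5f1, Sox2 and Nanog are abundant.

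RNA was measured on Affymetrix Mouse 430A 2.0 arrays, and all values below are log2 intensities per probe set after quantile normalization over the 16 arrays, with 1 probe set per gene. ES cell identity was checked on 7 marker genes, whose levels lay between the 92.4th percentile (Utf1) and the 99.8th (Dppa5a) of all 12393 genes. Before scaling, the column medians were 6.42 ± 0.02 log2 on Tgif1 OE arrays and 6.53 ± 0.02 on Tgif2 OE arrays (SD, n = 4 each; exact permutation p = 0.0286, the smallest that 4 against 4 can give), and no array of one group reached the other. The submitters' processing notes name a further tool for the Tgif2 OE arrays alone, so the group and the way its arrays were processed cannot be told apart. RNA integrity, read as the 5′ minus 3′ signal of the Gapdh controls, was -0.17 ± 0.14 log2 on Tgif1 OE arrays and -0.12 ± 0.08 on Tgif2 OE arrays (two-sided exact permutation p = 0.486), and of the Actb controls -0.54 ± 0.10 on Tgif1 OE arrays and -0.45 ± 0.07 on Tgif2 OE arrays (p = 0.229).

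Within each group, replicates 1 and 2 resembled each other, as did replicates 3 and 4. Profiles correlated across genes at 0.998 to 0.999 within such a pair of arrays and at 0.9941 to 0.996 between pairs of one group. The Gapdh 5′ minus 3′ signal split by pair as well. On Tgif1 OE arrays it was -0.24 and -0.34 in replicates 1 and 2, and -0.02 and -0.08 in replicates 3 and 4. On Tgif2 OE arrays it was -0.17 and -0.19, and then -0.04 and -0.06. The Actb signal was -0.58 and -0.67, and then -0.45 and -0.48, on Tgif1 OE arrays. On Tgif2 OE arrays it was -0.53 and -0.50, and then -0.39 and -0.39. Within each pair, every Tgif1 OE array was thus below every Tgif2 OE array for Actb. The permutation tests above did not take the pairs into account. The part of RNA integrity in the differences between pairs or between the groups was not tested. The labels do not say what sets the pairs apart or whether replicates came from different cultures. The p-values therefore cover the spread among these arrays alone, which may be technical. The adjusted p with array pair as a random block within each group is called the random pair block. It is therefore given beside that of each called gene, or the lack of a call with it is stated. Like the other fits with a block, it came from the 12 arrays of the 3 groups alone. Of 80 named genes that were called, 29 kept their call with it, against 119 of all 1235 called genes. Many of the 80 were named for large differences on these same arrays.

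The Tgif1 probe set did not separate the groups that were made to overexpress one gene or the other. Tgif1 stood at 10.27, 10.19, 10.09 and 10.06 on Tgif1 OE arrays, 10.11, 10.18, 10.22 and 10.17 on Tgif2 OE arrays and 10.68, 10.69, 10.74 and 10.76 on BirA control arrays. Both overexpression groups overlapped and lay below every BirA control array. The difference of Tgif1 OE from Tgif2 OE was -0.02 ± 0.07 log2 (SE; 95% interval -0.16 to 0.13; adjusted p = 0.922). The Tgif2 probe set stood at 8.88, 8.96, 8.81 and 8.75 on Tgif1 OE arrays, 9.22, 9.31, 9.22 and 9.37 on Tgif2 OE arrays and 9.36, 9.28, 9.27 and 9.21 on BirA control arrays. Every Tgif1 OE array was below every array of the other groups, while Tgif2 OE and BirA control overlapped. Tgif2 was thus 1.35-fold lower on Tgif1 OE arrays than on Tgif2 OE arrays (-0.43 ± 0.06 log2, adjusted p = 0.000567, and 0.0619 with array pair as a random block), and the difference between Tgif2 OE and BirA control was 0.00 ± 0.06 log2 (adjusted p = 0.992). Neither probe set was called above BirA control in the cells labelled as overexpressing its gene. Whether these probe sets detect the transgene transcripts was not tested, so the groups are named by their labels throughout.

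Across the array, 1235 of 12393 genes (9.97%) passed an adjusted p under 0.05 between Tgif1 OE and Tgif2 OE, and a gene that passed is referred to as called. Of these, 667 were higher (5.38%) and 568 lower (4.58%) on Tgif1 OE arrays. Most differences were small. The median size was 0.354 log2 among called genes and 0.103 log2 among all genes, and only 15 called genes differed at least 2-fold, 4 of them higher and 11 lower. For 10584 genes (85.4%) the 95% interval of the difference lay within 0.5 log2 of 0. The groups did not overlap for 2087 genes (16.8%), of which 1126 were called. The fits with a block or with pairs averaged used only the 12 arrays of the 3 groups. On these, 902 genes (7.28%) were called without a block. With the replicate number as a block, 1897 genes (15.3%) were called, 1174 of them among the 1235. With array pair as a random block, the count was 119 (0.96%), all among the 1235. With the arrays of each pair averaged it was 0 by limma, with 1200 genes at an unadjusted p under 0.05. All 1235 called genes had the same sign in replicates 1 and 2 as in replicates 3 and 4. The calls were made on these same arrays, so this is largely set by the selection and is no separate support. Without Tgif2 OE replicate 1 the count of called genes was 821, and without Tgif2 OE replicate 2 it was 823. The median difference over all genes was -0.103 log2 on the deposited values and 0.01 after quantile normalization. On the deposited values with no further scaling 2439 genes were called, 11.4% of them higher on Tgif1 OE arrays, against 54% after quantile normalization.

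**Figure D1:**
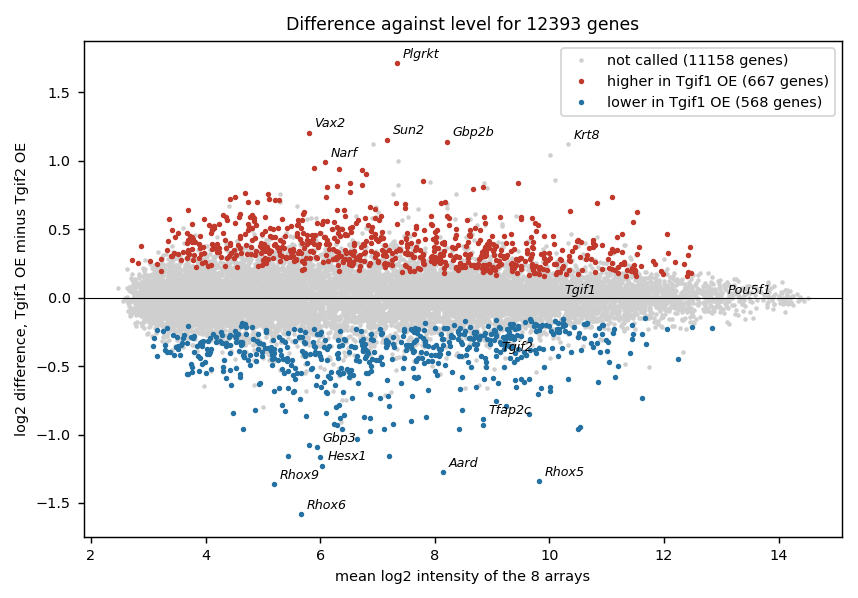
Log2 difference of Tgif1 OE from Tgif2 OE (vertical axis) against the mean log2 intensity of the 8 arrays (horizontal axis) for 12393 genes. The 667 genes called higher and the 568 called lower are coloured; Plgrkt is the highest point at 1.71 and Rhox6 the lowest at -1.58, while Tgif1 and Pou5f1 lie near 0.

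**Figure D2:**
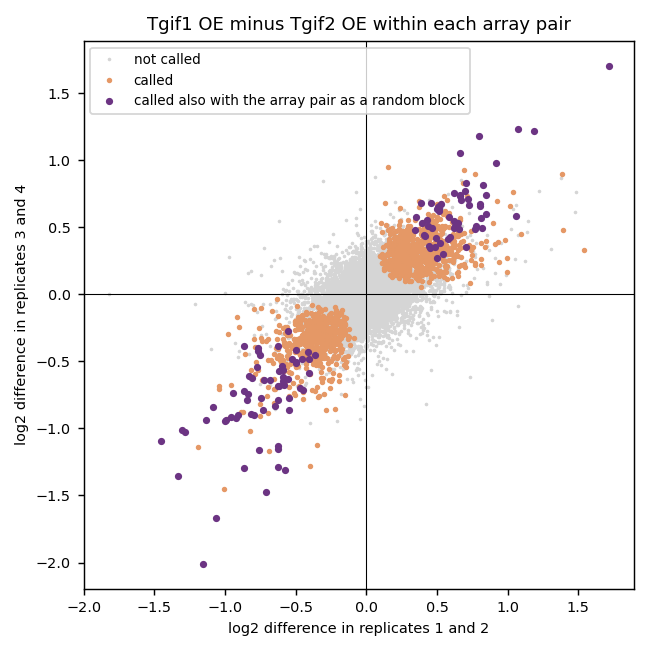
Log2 difference of Tgif1 OE from Tgif2 OE in replicates 1 and 2 (horizontal axis) against the same difference in replicates 3 and 4 (vertical axis), 1 point per gene. All 1235 called genes lie on the same side of 0 on both axes, and the 119 also called with array pair as a random block lie farther from the centre than most. The calls were made on these same arrays, so their place in the plot is no separate support.

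The gene with the largest difference was Plgrkt, which encodes a transmembrane receptor for plasminogen. Its level was 8.14, 8.01, 8.30 and 8.37 on Tgif1 OE arrays, 6.51, 6.20, 6.59 and 6.66 on Tgif2 OE arrays and 8.25, 8.04, 8.41 and 8.36 on BirA control arrays. Tgif1 OE and BirA control overlapped, and the 4 Tgif2 OE arrays were low. Plgrkt was 3.28-fold higher on Tgif1 OE arrays than on Tgif2 OE arrays (1.71 ± 0.11 log2, adjusted p = 6.54e-07, and 0.000319 with the random pair block). Sun2, an inner nuclear membrane protein that couples the nucleus to the cytoskeleton, read 7.62, 7.89, 7.72 and 7.74 on Tgif1 OE arrays, 6.67, 6.70, 6.66 and 6.33 on Tgif2 OE arrays and 8.04, 8.02, 7.95 and 8.06 on BirA control arrays. The groups did not overlap, and Tgif2 OE was the low one (Tgif1 OE minus Tgif2 OE 1.15 ± 0.08, adjusted p = 1.31e-06, random pair block 0.00277). Vax2, a homeobox gene of the ventral eye, read 6.39, 6.56, 6.07 and 6.58 on Tgif1 OE arrays, 5.38, 5.19, 5.11 and 5.10 on Tgif2 OE arrays and 6.62, 6.48, 6.86 and 6.80 on BirA control arrays. All Tgif2 OE arrays were again below the rest, with a difference between the overexpression groups of 1.20 ± 0.13 (adjusted p = 4.67e-05, random pair block 0.00945). Narf, which encodes a protein that binds prelamin A, read 6.50, 6.61, 6.70 and 6.52 on Tgif1 OE arrays and 5.73, 5.78, 5.41 and 5.46 on Tgif2 OE arrays, against 7.01, 6.87, 6.91 and 6.83 on BirA control arrays. Here too the 4 Tgif2 OE arrays were lowest (0.99 ± 0.08, adjusted p = 8.15e-06, random pair block 0.00211). Its 2 dimmer probe sets gave 0.57 and 0.23.

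Windows of 250 bases upstream of the transcription start were read to see whether genes that differ between the paralogs carry the letters of a TGIF site. RefSeq sequences on build GRCm38.p6 were used, and the capitals mark TGACAG or its reverse complement CTGTCA, which holds the TGTCA core. Plgrkt and Sun2 are shown as genes with large positive differences, Rhox5 as one with a large negative difference and Tgif2 as a transgene whose probe set differed. The windows are chr19:29361872-29362121 (minus strand) for Plgrkt, chr15:79742537-79742786 (minus strand) for Sun2, chrX:37754358-37754607 (plus strand) for Rhox5 and chr2:156839757-156840006 (plus strand) for Tgif2, each printed 5′ to 3′ along its gene.
Plgrkt: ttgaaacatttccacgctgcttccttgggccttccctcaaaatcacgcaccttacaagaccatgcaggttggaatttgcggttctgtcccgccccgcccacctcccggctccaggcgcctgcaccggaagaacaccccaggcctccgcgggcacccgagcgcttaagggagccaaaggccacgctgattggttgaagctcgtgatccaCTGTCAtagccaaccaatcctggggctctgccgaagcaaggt
Sun2: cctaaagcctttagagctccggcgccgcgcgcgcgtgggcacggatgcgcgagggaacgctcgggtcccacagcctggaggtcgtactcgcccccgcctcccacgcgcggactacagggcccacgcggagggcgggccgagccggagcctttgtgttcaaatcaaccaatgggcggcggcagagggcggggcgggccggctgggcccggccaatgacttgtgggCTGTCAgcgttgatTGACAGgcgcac
Rhox5: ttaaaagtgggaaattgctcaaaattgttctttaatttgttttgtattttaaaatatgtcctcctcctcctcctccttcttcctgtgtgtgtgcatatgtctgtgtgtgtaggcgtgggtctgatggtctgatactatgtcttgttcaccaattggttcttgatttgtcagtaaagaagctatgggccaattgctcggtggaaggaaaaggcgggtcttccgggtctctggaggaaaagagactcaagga
Tgif2: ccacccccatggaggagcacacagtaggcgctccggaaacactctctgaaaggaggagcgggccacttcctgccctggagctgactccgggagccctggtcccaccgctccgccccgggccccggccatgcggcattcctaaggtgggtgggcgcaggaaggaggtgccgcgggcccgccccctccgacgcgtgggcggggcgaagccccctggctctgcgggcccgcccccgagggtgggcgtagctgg
Plgrkt holds 1 match that starts 42 bases before the start site, Sun2 holds 2, at 26 and 12 bases before it and in opposite orientations, and the windows of Rhox5 and Tgif2 hold none of these 6 letters. The core TGTCA alone, or its reverse complement TGACA, occurs 1 time in the Rhox5 window and 0 times in that of Tgif2. This shorter search was added after the longer one and covers its matches, and the core was in 197 of 539 windows of genes called higher (36.5%), 140 of 428 of genes called lower (32.7%) and 3358 of all 9882 (34%). Over the array, 539 of the genes called higher had a window and 111 of these (20.6%) held the 6 letters on either strand. Among genes called lower it was 67 of 428 (15.7%), among all genes tested 1458 of 9882 (14.8%) and among all 27025 windows, 1 per gene, 16%. These shares are given as a description and were not tested. Of the 24 genes with the largest differences and the 2 transgenes, 19 had a window and 8 held a match, namely Plgrkt, Sun2, Otub2, Calcr, Fam111a, Aqp3, Gbp3 and Lmo7. Every window of these genes was searched, while the shares above used only the first listed window of each gene. The first listed windows of Otub2 and Calcr held no match, so the count of 8 is not to be set against those shares.

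The other genes with large positive differences mostly had low Tgif2 OE arrays as well. The deubiquitinase gene Otub2 averaged 6.36 ± 0.13 on Tgif1 OE arrays, 5.41 ± 0.21 on Tgif2 OE arrays and 6.59 ± 0.18 on BirA control arrays (SD, n = 4 each), a difference between the overexpression groups of 0.95 ± 0.11 (adjusted p = 9.76e-05, random pair block 0.0205), although its dimmer probe set gave -0.31. Fam111a, a serine protease gene, averaged 8.23 ± 0.23 on Tgif1 OE arrays, 7.37 ± 0.10 on Tgif2 OE arrays and 8.51 ± 0.10 on BirA control arrays (0.86 ± 0.10, adjusted p = 0.000102, random pair block 0.00945). The mitochondrial carrier gene Slc25a44 (0.83 ± 0.15, adjusted p = 0.00266, random pair block 0.107) and the proprotein convertase gene Pcsk7 (0.82 ± 0.09, adjusted p = 6.36e-05, random pair block 0.0132) were also higher on Tgif1 OE than on Tgif2 OE arrays. The other probe sets of Slc25a44 gave 0.63 and -0.23, and its call was lost with the mean of the probe sets. Nsmf, which encodes a synapse-to-nucleus signalling protein, differed from these. It read 7.16, 7.05, 7.17 and 7.16 on Tgif1 OE arrays, 6.12, 5.96, 6.61 and 6.54 on Tgif2 OE arrays and 6.23, 6.41, 6.27 and 6.50 on BirA control arrays, so the Tgif1 OE arrays were the high ones (0.82 ± 0.12, adjusted p = 0.000726, random pair block 0.0288). Its dimmer probe sets gave 0.15 and -0.02.

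Calcr, Plk2 and Gbp2b complete the 12 largest positive differences, and each lost its call without single arrays. The calcitonin receptor gene Calcr read 7.02, 6.70, 6.63 and 6.87 on Tgif1 OE arrays, 5.43, 5.20, 6.29 and 6.54 on Tgif2 OE arrays and 4.42, 4.30, 4.48 and 4.24 on BirA control arrays. Both overexpression groups were far above the control, and Tgif2 OE replicates 1 and 2 were lower than replicates 3 and 4. The difference of 0.94 ± 0.23 (adjusted p = 0.0187, random pair block 0.169) was no longer called without Tgif1 OE replicate 1 or Tgif2 OE replicate 1 (highest adjusted p 0.0596). Plk2, a polo-like kinase gene and p53 target, read 9.09, 8.97, 9.52 and 9.39 on Tgif1 OE arrays and 8.09, 8.13, 8.74 and 8.78 on Tgif2 OE arrays, against 8.77, 8.46, 8.15 and 7.83 on BirA control arrays. BirA control overlapped Tgif2 OE and lay below every Tgif1 OE array, and the difference between the overexpression groups was 0.81 ± 0.20 (adjusted p = 0.0200, random pair block 0.175; highest 0.0643 where the call was lost, without Tgif1 OE replicate 3 or 4 or Tgif2 OE replicate 1 or 2). Of the 12 genes, 8 were still called with array pair as a random block (not Slc25a44, Calcr, Plk2 and Gbp2b) and 9 in every fit that left out 1 array. Of all 1235 called genes, 119 were still called with that block. The 12 were chosen on these same arrays for large differences without overlap, so their counts are no separate support.

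**Figure D3:**
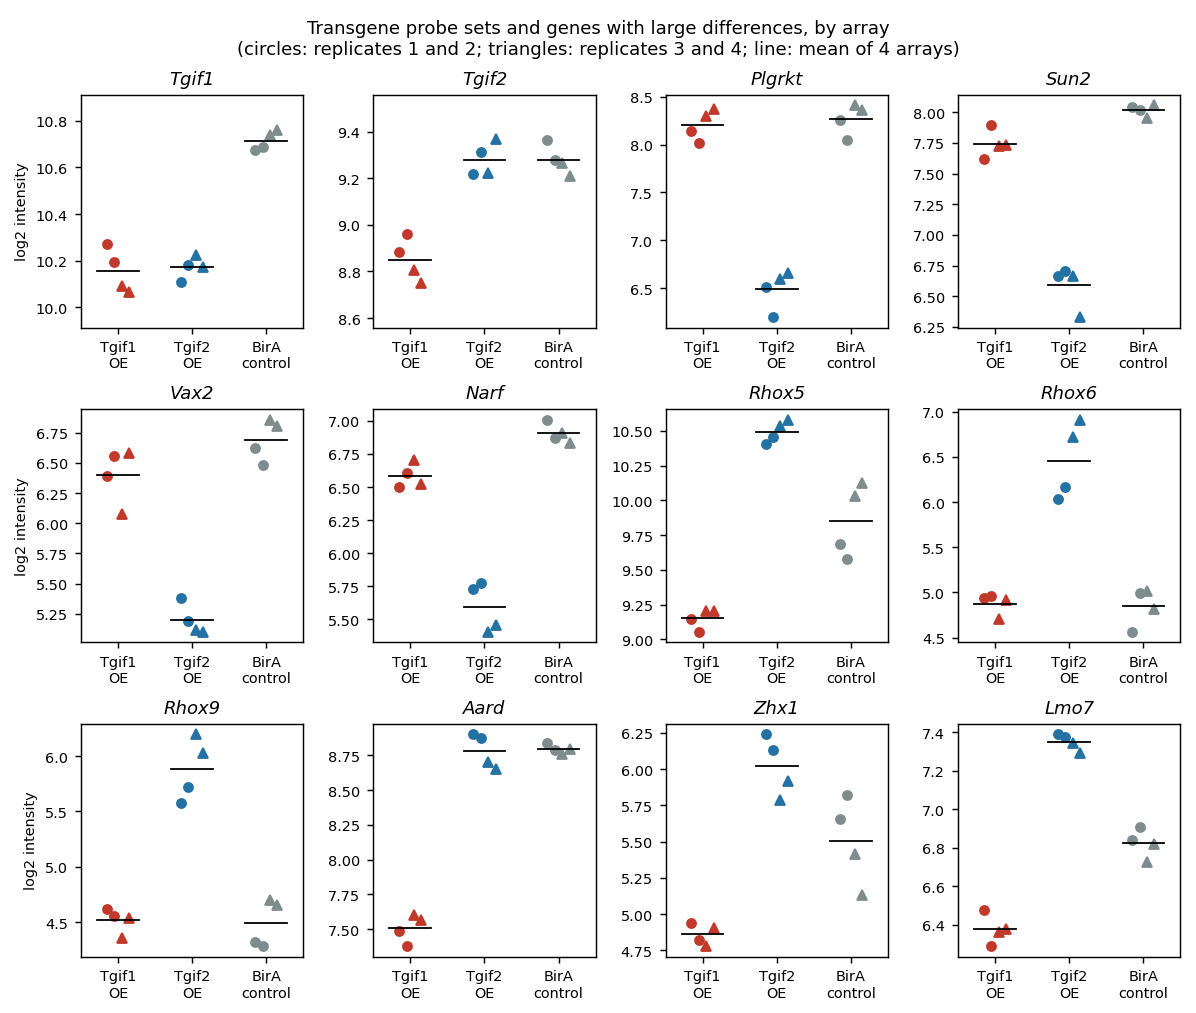
Log2 intensity on each array for the Tgif1 and Tgif2 probe sets and 10 genes with large differences, with Tgif1 OE left, Tgif2 OE in the middle and BirA control right; circles are replicates 1 and 2, triangles replicates 3 and 4, and lines means of 4 arrays. Tgif2 OE is the low group for Plgrkt, Sun2, Vax2 and Narf, Tgif1 OE the low group for Aard, and BirA control lies between the other groups for Rhox5, Zhx1 and Lmo7.

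The largest negative differences included 3 genes of the Rhox cluster, a group of homeobox genes on the X chromosome that is expressed in reproductive tissues and in the early embryo. Rhox6 read 4.94, 4.96, 4.70 and 4.91 on Tgif1 OE arrays, 6.03, 6.17, 6.72 and 6.91 on Tgif2 OE arrays and 4.57, 4.99, 5.01 and 4.81 on BirA control arrays. Tgif1 OE and BirA control overlapped at a low level and all Tgif2 OE arrays were higher, replicates 3 and 4 most of all. Rhox6 was 2.99-fold lower on Tgif1 OE than on Tgif2 OE arrays (-1.58 ± 0.17, adjusted p = 5.30e-05, random pair block 0.00651). Rhox9 read 4.62, 4.56, 4.35 and 4.54 on Tgif1 OE arrays, 5.58, 5.72, 6.20 and 6.03 on Tgif2 OE arrays and 4.32, 4.28, 4.70 and 4.65 on BirA control arrays. It had the same order of groups as Rhox6 (-1.36 ± 0.13, adjusted p = 1.70e-05, random pair block 0.00183). Rhox5, the brightest of the 3, read 9.14, 9.06, 9.21 and 9.20 on Tgif1 OE arrays, 10.40, 10.45, 10.54 and 10.58 on Tgif2 OE arrays and 9.69, 9.58, 10.03 and 10.12 on BirA control arrays. Its groups did not overlap, and BirA control lay between the others. Rhox5 was 2.54-fold lower on Tgif1 OE than on Tgif2 OE arrays (-1.34 ± 0.10, adjusted p = 2.71e-06, random pair block 0.000319), with -0.70 ± 0.10 from BirA control on Tgif1 OE arrays (adjusted p = 0.000155) and 0.64 ± 0.10 on Tgif2 OE arrays (adjusted p = 0.000282). Rhox genes resemble each other in sequence, so a probe set may read more than 1 of them.

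Aard, Aqp3 and Pde8a were low on Tgif1 OE arrays, while their Tgif2 OE arrays overlapped BirA control. Aard read 7.49, 7.38, 7.60 and 7.56 on Tgif1 OE arrays, 8.90, 8.87, 8.70 and 8.65 on Tgif2 OE arrays and 8.84, 8.79, 8.76 and 8.79 on BirA control arrays. Only the Tgif1 OE arrays were low, with a difference from Tgif2 OE of -1.27 ± 0.07 (adjusted p = 1.53e-07, random pair block 5.10e-05). Aqp3, a water and glycerol channel gene, averaged 6.62 ± 0.10 on Tgif1 OE arrays, 7.77 ± 0.22 on Tgif2 OE arrays and 7.57 ± 0.20 on BirA control arrays (SD, n = 4 each; -1.15 ± 0.12, adjusted p = 3.69e-05, random pair block 0.00895). Its dimmer probe sets gave -1.34 and -0.15. Pde8a, which encodes a phosphodiesterase that degrades cyclic AMP, averaged 5.41 ± 0.41 on Tgif1 OE arrays, 6.58 ± 0.46 on Tgif2 OE arrays and 6.51 ± 0.18 on BirA control arrays (-1.16 ± 0.21, adjusted p = 0.00314, random pair block 0.0670). Acss1, a mitochondrial acetyl-CoA synthetase gene (-1.08 ± 0.12, adjusted p = 0.000102, random pair block 0.0364), and Gjb5, a connexin gene (-1.03 ± 0.14, adjusted p = 0.000423, random pair block 0.00895), averaged below BirA control in both overexpression groups and were lowest on Tgif1 OE arrays. The dimmer Acss1 probe sets gave -0.05 and -0.35. Acss1 changed by -1.54 ± 0.12 from BirA control on Tgif1 OE arrays and by -0.46 ± 0.12 on Tgif2 OE arrays, and Gjb5 by -1.52 ± 0.14 on Tgif1 OE arrays and -0.49 ± 0.14 on Tgif2 OE arrays. Hesx1, a homeobox repressor gene of the forebrain and pituitary that is also expressed in ES cells, read 5.87, 5.70, 4.98 and 5.10 on Tgif1 OE arrays, 6.56, 7.02, 6.51 and 6.48 on Tgif2 OE arrays and 5.91, 5.62, 5.39 and 5.84 on BirA control arrays. The Tgif2 OE arrays were the high ones (-1.23 ± 0.19, adjusted p = 0.00108, random pair block 0.0506). Of the 12 largest negative differences, 10 were still called with the random pair block, not Pde8a and Hesx1, and all 12 in every fit that left out 1 array. These genes too were chosen on the same arrays for large differences without overlap, so the counts are no separate support.

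A further set of genes had Tgif1 OE and Tgif2 OE on opposite sides of BirA control, each called in all 3 contrasts by the fit without a block. Against BirA control, 20.6% of all genes were called on Tgif1 OE arrays and 26.8% on Tgif2 OE arrays. These contrasts share arrays, so the values are given side by side only. Calls against BirA control treat the arrays of a pair as independent, and the random pair block values below are for Tgif1 OE minus Tgif2 OE alone. Among the genes of this paragraph the highest adjusted p against BirA control was 0.04, for Selenom on Tgif1 OE arrays. Zhx1, a zinc finger and homeobox repressor gene, read 4.94, 4.82, 4.78 and 4.90 on Tgif1 OE arrays, 6.24, 6.13, 5.79 and 5.92 on Tgif2 OE arrays and 5.66, 5.82, 5.42 and 5.14 on BirA control arrays. BirA control lay between the others on average but Tgif2 OE replicate 3 was below BirA control replicate 2 (Tgif1 OE minus Tgif2 OE -1.16 ± 0.13, adjusted p = 5.69e-05, random pair block 0.00775). Lmo7, a LIM domain gene of cell junctions, read 6.48, 6.29, 6.36 and 6.38 on Tgif1 OE arrays, 7.39, 7.37, 7.34 and 7.29 on Tgif2 OE arrays and 6.84, 6.91, 6.73 and 6.82 on BirA control arrays. The 3 groups did not overlap (-0.97 ± 0.06, adjusted p = 7.86e-07, random pair block 0.000372). The fatty acid-binding protein gene Fabp3 was -0.51 ± 0.13 from BirA control on Tgif1 OE arrays and 0.43 ± 0.13 on Tgif2 OE arrays, and differed between them by -0.94 ± 0.13 (adjusted p = 0.000567, random pair block 0.0111). In the other direction stood the zinc transporter gene Slc30a4 (0.73 ± 0.08, adjusted p = 7.34e-05, random pair block 0.00775), the selenoprotein gene Selenom (0.53 ± 0.08, adjusted p = 0.000648, random pair block 0.0252), Armcx1 (0.45 ± 0.06, adjusted p = 0.000633) and Mgmt, the DNA repair methyltransferase gene (0.35 ± 0.05, adjusted p = 0.000596). Slc30a4 averaged 6.47 ± 0.08 on Tgif1 OE arrays, 5.74 ± 0.15 on Tgif2 OE arrays and 6.11 ± 0.12 on BirA control arrays. With the random pair block, Armcx1 (adjusted p = 0.0773) and Mgmt (0.0523) were not called.

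Other genes were taken for lying far from BirA control on the same side in both overexpression groups without being called between them. The smooth muscle actin-binding protein gene Tagln read 10.04, 10.21, 10.95 and 10.95 on Tgif1 OE arrays, 8.68, 8.63, 10.27 and 10.40 on Tgif2 OE arrays and 6.68, 7.02, 7.38 and 7.13 on BirA control arrays. Both groups were far above the control, they overlapped, and replicates 3 and 4 were the higher pair in each. The difference of 1.04 ± 0.36 (95% interval 0.27 to 1.82; adjusted p = 0.0846, random pair block 0.326) was called with the replicate number as a block (adjusted p = 0.0128) and without Tgif2 OE replicate 3 or replicate 4. Thbs1, a matricellular protein gene, differed by 0.75 ± 0.38 (interval -0.05 to 1.56), Myl9, a myosin light chain gene, by 0.35 ± 0.28 (interval -0.25 to 0.95) and the protease gene Prss23 by 0.40 ± 0.44 (interval -0.53 to 1.33). None of these was called. Below BirA control in both groups were the tau gene Mapt, at 6.13 ± 0.16 on Tgif1 OE arrays and 6.14 ± 0.21 on Tgif2 OE arrays against 7.78 ± 0.16 on BirA control arrays, and Timm8a2, of the mitochondrial import family, at 3.37 ± 0.20 on Tgif1 OE arrays and 3.39 ± 0.14 on Tgif2 OE arrays against 5.17 ± 0.50 on BirA control arrays. Their differences between the overexpression groups were -0.01 ± 0.11 (interval -0.23 to 0.22) and -0.02 ± 0.18 (interval -0.41 to 0.37). For Mapt the dimmer probe sets gave -0.37 and 0.24. Eea1, an early endosome gene, differed by 0.37 ± 0.17 (interval -0.01 to 0.74) and 2210409E12Rik by -0.64 ± 0.26 (interval -1.19 to -0.09).

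Gene lists gave a view by pathway. There were 29 lists with 475 measured entries, and a list's counts from the fit without a block are to be read against the 9.97% of all genes called. Counts with the replicate block are to be read against 15.3% of all genes, and those with the random pair block against 0.96%. The lowest and highest numbers of members called when 1 array was left out stand beside a count above 0 that they differ from by over 1.5 times, and the counts with the random pair block stand beside every such count. The lowest came without a Tgif1 OE array or without Tgif2 OE replicate 1 or 2, and for the galectin list also without Tgif2 OE replicate 3. The highest, where above the count, came without Tgif2 OE replicate 3 or 4, and for the core and naive list without Tgif1 OE replicate 1. Of 17 core and naive pluripotency genes, 0 were called higher and 3 lower (17.6%, 1 to 5 without 1 array, 0 higher and 1 lower with the random pair block), and 7 were called lower with the replicate number as a block. The median difference of the list was -0.323 log2, against 0.01 for all genes, and no member was above 0 under any of the 3 scalings tried. In bulk samples, fewer cells of a type and less RNA per cell cannot be told apart. Fbxo15, a pluripotency-associated F-box gene, read 10.66, 10.71, 10.41 and 10.41 on Tgif1 OE arrays, 11.29, 11.25, 11.03 and 11.09 on Tgif2 OE arrays and 11.51, 11.49, 11.21 and 11.16 on BirA control arrays. The overexpression groups did not overlap (-0.62 ± 0.10, adjusted p = 0.00120, random pair block 0.0244). Tcl1, an activator of Akt signalling, read 8.38, 8.39, 7.99 and 7.96 on Tgif1 OE arrays, 9.11, 9.01, 8.43 and 8.50 on Tgif2 OE arrays and 9.78, 9.84, 9.72 and 9.83 on BirA control arrays. Both groups were below the control, Tgif1 OE more so (-0.58 ± 0.14, adjusted p = 0.0190, random pair block 0.142), but the call was lost without Tgif1 OE replicate 3 or 4 or Tgif2 OE replicate 1 or 2 (highest adjusted p 0.0606). Pecam1, an adhesion molecule gene of naive cells, was also called lower (-0.69 ± 0.18, adjusted p = 0.0275, random pair block 0.364) and lost its call in 5 such fits, without Tgif1 OE replicate 2, 3 or 4 or Tgif2 OE replicate 1 or 2 (highest 0.0796).

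Of the core factors, Pou5f1 and Sox2 were close between the groups and Nanog was lower on average on Tgif1 OE arrays without passing the test. Pou5f1, which encodes Oct4, averaged 13.00 ± 0.06 on Tgif1 OE arrays, 13.02 ± 0.06 on Tgif2 OE arrays and 13.13 ± 0.08 on BirA control arrays (SD, n = 4 each), and the 95% interval of the difference was -0.13 to 0.10. The interval was -0.23 to 0.08 for Sox2, -0.23 to 0.14 for Zfp42, a marker of naive cells, and -0.47 to 0.20 for Klf4. Nanog read 11.70, 11.80, 11.23 and 11.22 on Tgif1 OE arrays, 12.32, 12.29, 11.71 and 11.64 on Tgif2 OE arrays and 12.38, 12.33, 12.02 and 11.97 on BirA control arrays. Replicates 1 and 2 were the higher pair in every group, and within each pair the Tgif1 OE arrays were lowest. The Nanog difference of -0.50 ± 0.17 (95% interval -0.87 to -0.14) missed the threshold (adjusted p = 0.0762), was called with the replicate number as a block (0.00122) and without Tgif2 OE replicate 4, and was not called with array pair as a random block (0.312). Esrrb, a naive orphan receptor gene, had the same pattern, with -0.33 ± 0.22 (adjusted p = 0.398, random pair block 0.724, and 0.0420 with the replicate block). Of 16 ES-cell-enriched genes 0 were higher and 3 lower (18.8%, 0 higher and 0 lower with the random pair block), namely the zinc finger gene Sall1 (-0.40 ± 0.08), Dppa2 (-0.40 ± 0.07) and the TGF-beta family ligand gene Gdf3 (-0.23 ± 0.05). Their adjusted p-values were 0.00689, 0.00314 and 0.0149, and 0.195, 0.0813 and 0.267 with the random pair block. Of 20 LIF, Stat3 and FGF-ERK pathway genes 0 were higher and 2 lower (10%, 0 to 3 without 1 array, 0 higher and 0 lower with the random pair block), the LIF co-receptor gene Il6st (-0.31 ± 0.08, adjusted p = 0.0339, random pair block 0.290) and the early response gene Egr1 (-0.27 ± 0.07, adjusted p = 0.0226, random pair block 0.265). With the replicate block 4 were lower. The Il6st call was lost without Tgif1 OE replicate 2, 3 or 4 or Tgif2 OE replicate 1 or 2 (highest adjusted p 0.102), and the Egr1 call without Tgif1 OE replicate 3 or 4 or Tgif2 OE replicate 2 (highest 0.0700).

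Of 15 formative and primed pluripotency genes 3 were called higher and 1 lower (26.7%, 0 higher and 0 lower with the random pair block), and with the replicate block 6 were higher and 1 lower. Dnmt3a, a de novo DNA methyltransferase gene, read 11.35, 11.49, 11.34 and 11.42 on Tgif1 OE arrays, 11.13, 11.25, 10.65 and 10.82 on Tgif2 OE arrays and 10.61, 10.52, 10.50 and 10.40 on BirA control arrays. Both groups were above the control and Tgif1 OE was highest (0.44 ± 0.11, adjusted p = 0.0161, random pair block 0.199), and its 4 other probe sets gave 0.34 to 0.62. Grhl2, which drives the epithelial program of formative cells, was higher by 0.42 ± 0.09 (adjusted p = 0.00723, random pair block 0.120), although its dimmer probe sets gave -0.11 to 0.14. Sox3, a SoxB1 neural and epiblast gene, was lower (-0.55 ± 0.10, adjusted p = 0.00263, random pair block 0.0801), with 0.11 for a dimmer probe set. The calls of Grhl2 and Sox3 were lost with the mean of the probe sets. Otx2 and Fgf5, which mark exit from the naive state, had intervals of -0.24 to 0.31 and -0.27 to 0.21.

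Among lineage lists, 20 trophectoderm genes had 1 higher and 2 lower (15%, 3 to 5 without 1 array, 0 higher and 2 lower with the random pair block), and with the replicate block 3 higher and 2 lower. Tfap2c, an AP-2 factor gene of trophectoderm and germ cells, read 8.54, 8.51, 8.32 and 8.25 on Tgif1 OE arrays, 9.17, 9.13, 9.64 and 9.23 on Tgif2 OE arrays and 8.54, 8.55, 8.92 and 9.09 on BirA control arrays. Tgif2 OE was above the others (-0.89 ± 0.13, adjusted p = 0.000924, random pair block 0.0401), and its other probe sets gave -0.73 and -0.87. The epithelial factor gene Elf3 was lower (-0.60 ± 0.08, adjusted p = 0.000404, random pair block 0.0364) and the placental factor gene Hand1 higher by 0.54 ± 0.10 (adjusted p = 0.00390, random pair block 0.203). Cdx2, the trophectoderm determinant, had an interval of -0.32 to 0.41. Primitive endoderm genes gave 2 higher and 2 lower of 19 (21.1%, 1 to 4 without 1 array, 0 higher and 0 lower with the random pair block). Dab2, an endocytic adaptor gene, was higher by 0.45 ± 0.09 (adjusted p = 0.00494, random pair block 0.253) and Gata4 by 0.23 ± 0.07 (adjusted p = 0.0365, random pair block 0.375) at levels near 4, while Sox7 was lower (-0.69 ± 0.20, adjusted p = 0.0429, random pair block 0.239). The dimmer Dab2 probe sets gave 0.30 and 0.02. For Gata4 a dimmer probe set gave 0.05, and its call was lost with the mean of the probe sets. The Gata4 call was lost without Tgif1 OE replicate 1 or 3 or Tgif2 OE replicate 1, 2 or 3 (highest adjusted p 0.107), and the Sox7 call without Tgif1 OE replicate 2, 3 or 4 or Tgif2 OE replicate 1 or 2 (highest 0.123). Gata6, the lineage determinant, had an interval of -0.07 to 0.33.

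Mesoderm and streak genes gave 0 higher and 2 lower of 16 (12.5%, 1 to 3 without 1 array, 0 higher and 0 lower with the random pair block), and 3 lower with the replicate block. Wnt3, a streak-inducing ligand gene, was lower (-0.40 ± 0.09, adjusted p = 0.0138, random pair block 0.220), at levels under 4 in every group, as was the VEGF receptor gene Kdr (-0.26 ± 0.08, adjusted p = 0.0397, random pair block 0.320). The Kdr call was kept in 1 of 8 fits that left out an array, the one without Tgif2 OE replicate 3, and its highest adjusted p was 0.0981. Of 15 neuroectoderm genes 3 were higher and 2 lower (33.3%, 1 higher and 0 lower with the random pair block). The neural adhesion molecule gene Ncam1 read 6.06, 5.87, 5.92 and 6.04 on Tgif1 OE arrays, 5.39, 5.52, 5.32 and 5.40 on Tgif2 OE arrays and 6.70, 6.69, 6.61 and 6.66 on BirA control arrays. Both groups were below the control and Tgif2 OE was lowest (0.57 ± 0.06, adjusted p = 5.69e-05, random pair block 0.0208), while its 5 dimmer probe sets gave -0.24 to 0.60. The proneural gene Neurog1 was higher by 0.51 ± 0.08 (adjusted p = 0.00142, random pair block 0.154), with -0.12 for its dimmer probe set. Its relative Neurog2, named after its value was seen, went the other way (-0.41 ± 0.07, adjusted p = 0.00295, not called with the random pair block). Neurog2 averaged 3.85 on Tgif1 OE arrays and 4.26 on Tgif2 OE arrays. Tubb3, a neuronal tubulin gene, was also lower (-0.57 ± 0.16, adjusted p = 0.0397, random pair block 0.227). The Tubb3 call was lost without Tgif1 OE replicate 1, 3 or 4 or Tgif2 OE replicate 1 or 2 (highest adjusted p 0.117).

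**Figure D4:**
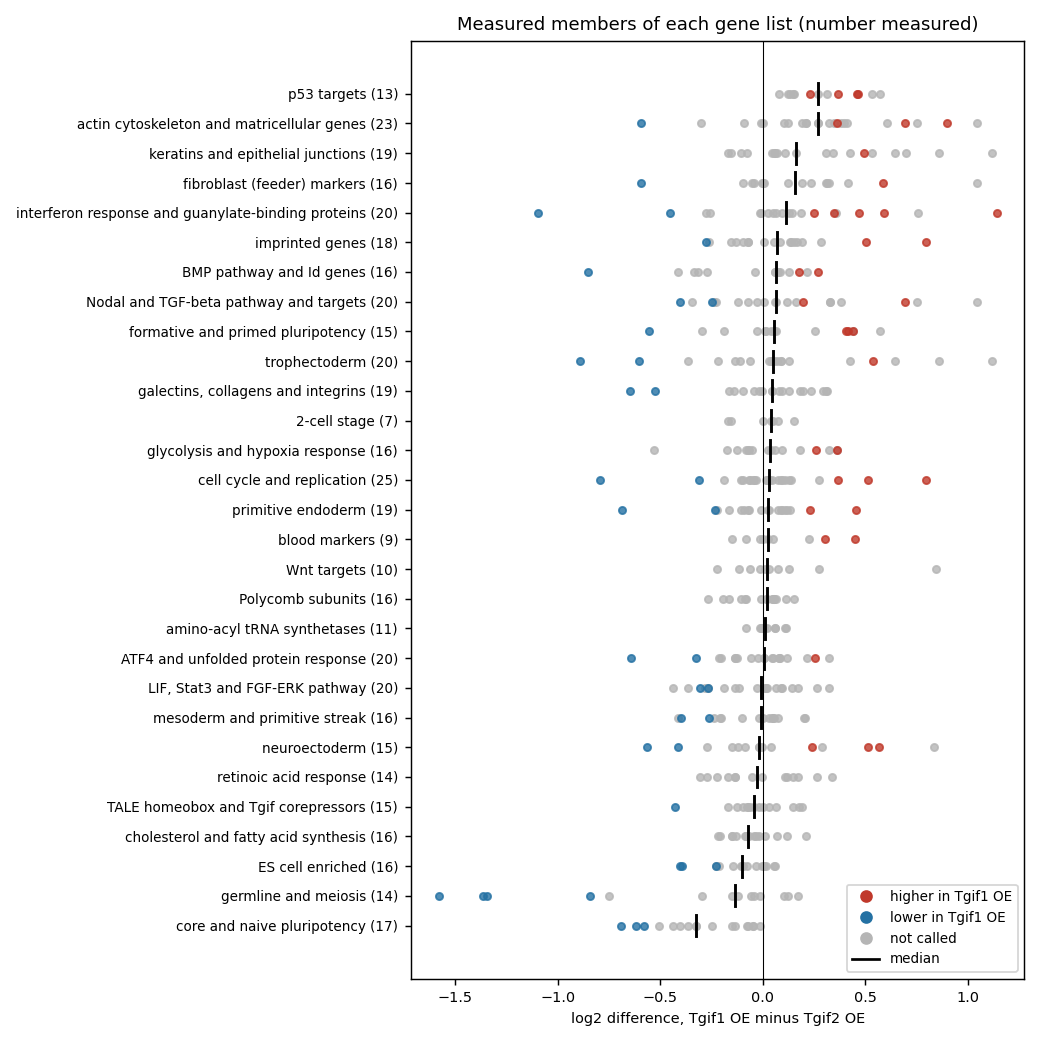
Log2 difference of Tgif1 OE from Tgif2 OE (horizontal axis) for each measured member of 29 gene lists (rows, with the number measured), with called members coloured and the list median as a bar. The core and naive pluripotency list has the lowest median, -0.323, with no member above 0, and the p53 list lies wholly above 0, where 12 of 13 members do on the deposited values without scaling.

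The Tgif proteins act on Smad signalling, and the pathway lists were split by role. Of 20 Nodal and TGF-beta genes 2 were higher and 2 lower (20%, 0 higher and 0 lower with the random pair block), and with the replicate block 4 higher and 3 lower. Among receptors and inhibitors, the type I receptor gene Acvr1b was lower on Tgif1 OE than on Tgif2 OE arrays (-0.25 ± 0.06, adjusted p = 0.0142, random pair block 0.277), as was the inhibitory Smad gene Smad7 (-0.40 ± 0.08, adjusted p = 0.00630, random pair block 0.137). The inhibitor gene Ski, named after its value was seen, was higher (0.20 ± 0.05, adjusted p = 0.0288, not called with the random pair block). Its relative Skil differed by 0.33 ± 0.15 (adjusted p = 0.189, and 0.0269 with the replicate block). A dimmer Acvr1b probe set gave -0.175, and the Acvr1b call was lost with the mean of the probe sets. The ligand gene Nodal differed by -0.07 ± 0.05 and its antagonist and target gene Lefty1 by -0.35 ± 0.13 (adjusted p = 0.399 and 0.118). Among targets, the matricellular gene Ccn2 read 11.10, 11.06, 11.27 and 11.27 on Tgif1 OE arrays, 10.11, 10.09, 10.80 and 10.92 on Tgif2 OE arrays and 9.38, 9.32, 9.65 and 9.58 on BirA control arrays. Both groups were above the control and Tgif1 OE was highest (0.69 ± 0.16, adjusted p = 0.0130, random pair block 0.107), with the Tgif2 OE arrays split by pair. Of 16 BMP pathway and Id genes 2 were higher and 1 lower (18.8%, 1 to 3 without 1 array, 0 higher and 1 lower with the random pair block), and with the replicate block 3 were higher and 3 lower. Smad6, which inhibits BMP signalling and is a target of it, read 6.09, 5.89, 5.96 and 5.98 on Tgif1 OE arrays, 6.83, 6.78, 6.81 and 6.92 on Tgif2 OE arrays and 5.52, 5.75, 6.33 and 6.35 on BirA control arrays. All Tgif2 OE arrays were above all others (-0.85 ± 0.14, adjusted p = 0.00203, random pair block 0.0443). Smad5, a BMP-activated Smad gene (0.27 ± 0.08, adjusted p = 0.0492, random pair block 0.390), and the receptor gene Bmpr1a (0.18 ± 0.05, adjusted p = 0.0335, random pair block 0.402) were called higher by small amounts. The Smad5 call was kept only without Tgif1 OE replicate 1 or Tgif2 OE replicate 3 (highest adjusted p 0.141), and the Bmpr1a call was lost without Tgif1 OE replicate 2, 3 or 4 or Tgif2 OE replicate 1 or 2 (highest 0.101). The 4 dimmer Bmpr1a probe sets gave -0.33 to 0.09.

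Of the 15 TALE homeobox and Tgif corepressor genes 0 were higher and 1 lower (6.67%, 0 higher and 0 lower with the random pair block), Tgif2 itself. The CtBP genes Ctbp1 (0.07 ± 0.07) and Ctbp2 (-0.07 ± 0.05), the deacetylase genes Hdac1 (-0.06 ± 0.09) and Hdac2 (0.19 ± 0.09) and Sin3a (-0.04 ± 0.11) were not called. No gene was called among 14 retinoic acid response genes, 10 Wnt targets, 16 Polycomb subunits, 11 amino-acyl tRNA synthetase genes, 16 cholesterol and fatty acid synthesis genes or 7 genes of the 2-cell stage. Their medians lay between -0.074 (cholesterol and fatty acid synthesis) and 0.041 (2-cell stage). With the replicate block 1 retinoic acid gene was higher and 1 lower, 2 Wnt targets were higher, 1 Polycomb gene was lower, and 1 cholesterol gene was higher and 1 lower. When 1 array was left out, 1 retinoic acid gene was called without Tgif1 OE replicate 2 or Tgif2 OE replicate 1, 2 or 4. The same happened for 1 cholesterol gene without Tgif2 OE replicate 1 or 4 and for 1 Polycomb gene without Tgif2 OE replicate 4. With the random pair block no gene of these 6 lists was called.

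Keratins and epithelial junction genes gave 1 higher and 0 lower of 19 (5.26%, 0 to 4 without 1 array, 0 higher and 0 lower with the random pair block), and 3 higher with the replicate block. Krt8 and Krt18 encode the keratin pair of simple epithelia. Krt8 read 10.37, 10.32, 11.39 and 11.46 on Tgif1 OE arrays, 8.95, 8.99, 10.51 and 10.61 on Tgif2 OE arrays and 7.99, 8.09, 8.22 and 8.03 on BirA control arrays. Both groups were above the control, replicates 3 and 4 were the higher pair in each, and within each pair Tgif1 OE was the higher group. The difference of 1.12 ± 0.36 was not called (adjusted p = 0.0638), was called with the replicate block (0.0163) and without Tgif2 OE replicate 3 or replicate 4, and was not called with array pair as a random block (0.253). Krt18 had the same order of arrays (0.86 ± 0.40, adjusted p = 0.199, random pair block 0.499, and 0.0376 with the replicate block). The called member was the tight junction gene Cldn6 (0.49 ± 0.14, adjusted p = 0.0438, random pair block 0.245). Its call was lost with the replicate block (0.0771) and on the 12 arrays of the 3 groups without a block. It was also lost without any 1 array other than Tgif2 OE replicate 3 or 4 (highest adjusted p 0.124).

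Actin cytoskeleton and matricellular genes gave 3 higher and 1 lower of 23 (17.4%, 2 to 7 without 1 array, 0 higher and 0 lower with the random pair block), with a median of 0.27, and 6 higher and 1 lower with the replicate block. Calponin 1 gene Cnn1 read 7.18, 6.77, 7.43 and 7.62 on Tgif1 OE arrays, 5.98, 5.89, 6.72 and 6.80 on Tgif2 OE arrays and 5.35, 5.45, 5.16 and 4.91 on BirA control arrays, with the higher pair again replicates 3 and 4. It was called higher (0.90 ± 0.22, adjusted p = 0.0186, random pair block 0.157) but not without Tgif1 OE replicate 3 or 4 or Tgif2 OE replicate 1 or 2 (highest adjusted p 0.0596). The intermediate filament gene Vim went the other way, at 9.80, 9.76, 10.27 and 10.28 on Tgif1 OE arrays, 10.56, 10.58, 10.60 and 10.74 on Tgif2 OE arrays and 10.21, 10.32, 10.48 and 10.41 on BirA control arrays. The overexpression groups did not overlap (-0.59 ± 0.11, adjusted p = 0.00369, random pair block 0.0648), and its other probe sets gave -0.59 and -0.84. Some of these genes are also fibroblast markers. Of 16 fibroblast markers 1 was higher, Dcn (0.59 ± 0.09, adjusted p = 0.00120, random pair block 0.0957), and 1 lower, Vim (12.5%, 0 higher and 0 lower with the random pair block), with 5 higher and 1 lower in the replicate block fit, and their mean level ranged over 5.58 to 5.96 on Tgif1 OE arrays, 5.41 to 5.80 on Tgif2 OE arrays and 5.17 to 5.32 on BirA control arrays. The defining fibroblast gene Col1a1 averaged 4.49 ± 0.19 on Tgif1 OE arrays and 4.25 ± 0.11 on Tgif2 OE arrays, and Thy1 6.32 ± 0.11 on Tgif1 OE arrays and 6.31 ± 0.22 on Tgif2 OE arrays. The part of other cells in these differences was not tested. Of 9 blood markers 2 were higher and 0 lower (22.2%, 0 to 2 without 1 array, 0 higher and 0 lower with the random pair block), and their mean level was 5.21 to 5.30 on Tgif1 OE arrays, 5.12 to 5.20 on Tgif2 OE arrays and 5.26 to 5.34 on BirA control arrays. The higher ones were the actin regulator gene Coro1a (0.45 ± 0.12, adjusted p = 0.0337, random pair block 0.245) and the lysozyme gene Lyz2 (0.30 ± 0.09, adjusted p = 0.0366, random pair block 0.429), each called in 2 of 8 fits that left out 1 array. Galectin, collagen and integrin genes gave 0 higher and 2 lower of 19 (10.5%, 1 to 3 without 1 array, 0 higher and 1 lower with the random pair block). Lgals3, which encodes a secreted lectin, read 8.38, 8.38, 8.43 and 8.38 on Tgif1 OE arrays, 9.03, 8.96, 9.00 and 9.17 on Tgif2 OE arrays and 10.21, 10.16, 9.95 and 9.98 on BirA control arrays, with no overlap of the 3 groups (-0.65 ± 0.07, adjusted p = 6.64e-05, random pair block 0.00803). Lgals9, another lectin gene, was lower as well (-0.52 ± 0.14, adjusted p = 0.0339, random pair block 0.231) and was called in 2 of 8 such fits.

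Interferon response genes and guanylate-binding protein genes, which encode interferon-induced GTPases of cell-autonomous defence, gave 5 higher and 2 lower of 20 (35%, 4 to 9 without 1 array, 0 higher and 1 lower with the random pair block). The family split by member. Gbp2b read 8.38, 8.39, 9.19 and 9.14 on Tgif1 OE arrays, 6.92, 7.08, 8.29 and 8.26 on Tgif2 OE arrays and 5.55, 5.94, 5.96 and 5.99 on BirA control arrays. Both groups were above the control and Tgif1 OE was higher than Tgif2 OE, without overlap (1.14 ± 0.29, adjusted p = 0.0223). The call was lost without Tgif1 OE replicate 3 or 4 or Tgif2 OE replicate 1 or 2 (highest adjusted p 0.0704) and with the random pair block (0.144). Gbp3 read 5.37, 5.33, 5.18 and 5.69 on Tgif1 OE arrays, 6.04, 6.09, 6.87 and 6.94 on Tgif2 OE arrays and 4.21, 4.27, 4.09 and 4.01 on BirA control arrays. Here Tgif2 OE was the higher of the groups above the control (-1.09 ± 0.20, adjusted p = 0.00359, random pair block 0.0479). Changes from BirA control were 2.92 ± 0.29 for Gbp2b and 1.25 ± 0.20 for Gbp3 on Tgif1 OE arrays, and 1.78 ± 0.29 and 2.34 ± 0.20 on Tgif2 OE arrays. Guanylate-binding protein genes are similar in sequence, and their probe sets may cross-read. The antiviral membrane protein gene Ifitm3 was called higher on Tgif1 OE than on Tgif2 OE arrays (0.59 ± 0.15, adjusted p = 0.0243, random pair block 0.172), a call lost without the same 4 arrays as that of Gbp2b (highest adjusted p 0.0767).

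Of 13 p53 targets 4 were higher and 0 lower (30.8%, 2 to 5 without 1 array, 0 higher and 0 lower with the random pair block), and every member's difference was positive, from 0.08 to 0.57, with a median of 0.27, although 12 of the 13 were above 0 on the deposited values without scaling. The cell cycle inhibitor gene Cdkn1a read 9.06, 9.15, 9.04 and 9.02 on Tgif1 OE arrays, 8.72, 8.78, 8.63 and 8.67 on Tgif2 OE arrays and 9.01, 8.64, 8.68 and 8.65 on BirA control arrays. The overexpression groups did not overlap, and Tgif2 OE overlapped BirA control (0.37 ± 0.08, adjusted p = 0.0120, random pair block 0.283). A dimmer Cdkn1a probe set gave 0.18. Phlda3, an Akt inhibitor gene, was higher by 0.46 ± 0.10 (adjusted p = 0.00858, random pair block 0.207), and Ccng1, the cyclin G1 gene, by 0.46 ± 0.13 (adjusted p = 0.0371, random pair block 0.244). The call of Ccng1 was lost with the replicate block (0.0656) and on the 12 arrays of the 3 groups without a block. It was also lost without any 1 array other than Tgif2 OE replicate 3 or 4 (highest adjusted p 0.101). Cell cycle and replication genes gave 3 higher and 2 lower of 25 (20%, 3 to 5 without 1 array, 1 higher and 1 lower with the random pair block), all 3 of the higher ones being inhibitors of cyclin-dependent kinases. Cdkn1c, also an imprinted gene, read 8.91, 8.88, 9.24 and 9.21 on Tgif1 OE arrays, 8.07, 8.02, 8.37 and 8.60 on Tgif2 OE arrays and 8.09, 7.85, 7.86 and 7.67 on BirA control arrays. All Tgif1 OE arrays were above all others (0.79 ± 0.13, adjusted p = 0.00135, random pair block 0.0479). Cdkn1b was higher than on Tgif2 OE arrays by 0.51 ± 0.15 (adjusted p = 0.0432, random pair block 0.427) while below BirA control in both groups, and its call was lost without Tgif1 OE replicate 1, 3 or 4 or Tgif2 OE replicate 1 or 2 (highest adjusted p 0.112). A dimmer Cdkn1b probe set gave 0.04, and the Cdkn1b call was lost with the mean of the probe sets. The D-type cyclin gene Ccnd3 read 8.99, 9.03, 8.69 and 8.66 on Tgif1 OE arrays, 9.84, 9.90, 9.40 and 9.39 on Tgif2 OE arrays and 9.99, 10.04, 10.03 and 9.98 on BirA control arrays. Both groups were below the control and Tgif1 OE was lowest (-0.79 ± 0.12, adjusted p = 0.000749, random pair block 0.0132).

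**Figure D5:**
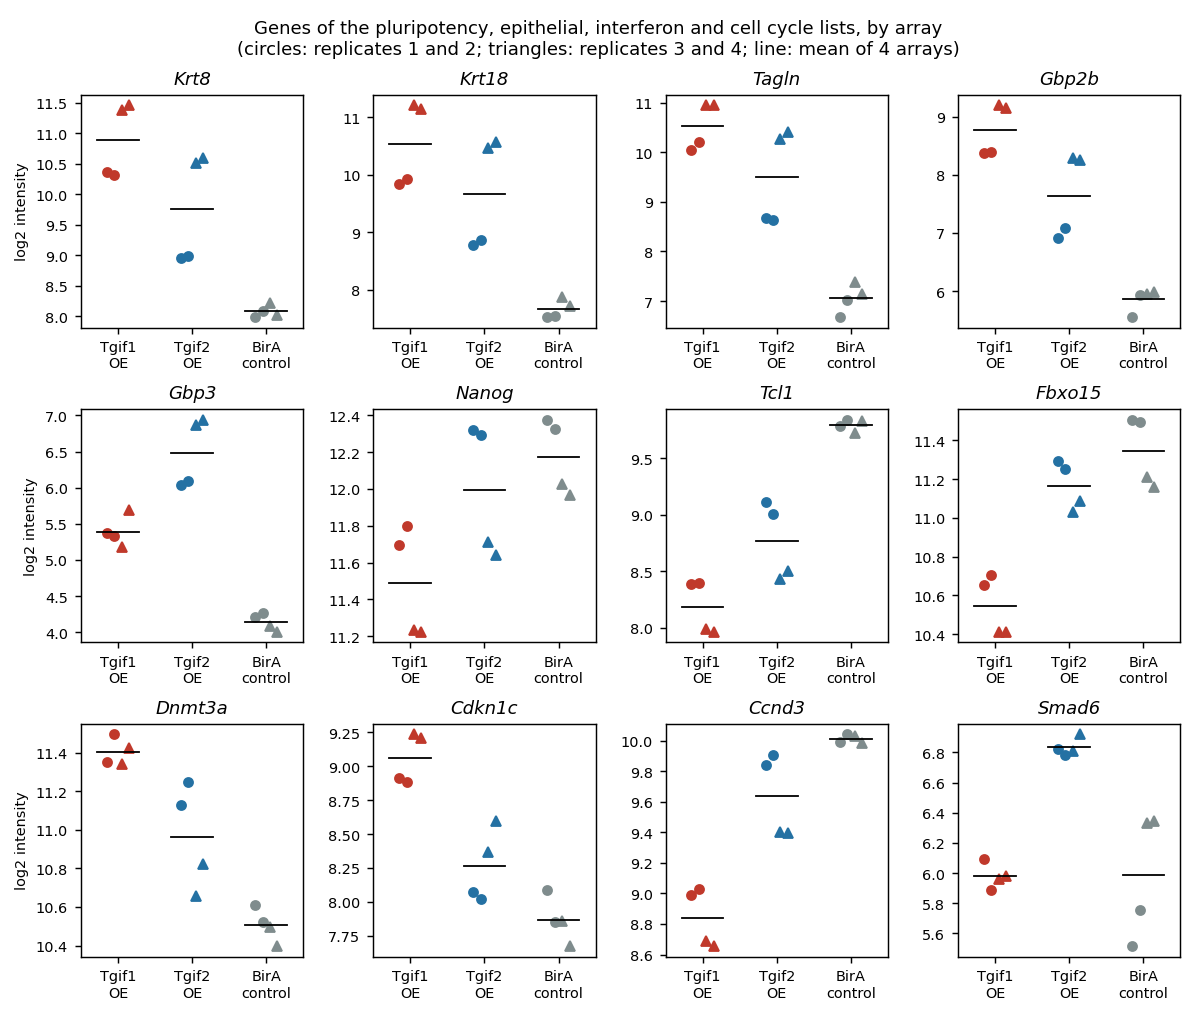
Log2 intensity on each array for 12 genes of the pluripotency, epithelial, interferon, cell cycle and BMP lists, with Tgif1 OE left, Tgif2 OE in the middle and BirA control right; circles are replicates 1 and 2, triangles replicates 3 and 4, and lines means of 4 arrays. Krt8, Krt18, Tagln and Nanog split by array pair in both overexpression groups, Gbp2b and Gbp3 order these groups oppositely, and Smad6 is highest on Tgif2 OE arrays.

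Germline and meiosis genes gave 0 higher and 4 lower of 14 (28.6%, 0 higher and 3 lower with the random pair block), which were Rhox5, Rhox6, Rhox9 and Prdm1, a repressor gene of germ cell specification named after its value was seen (-0.84 ± 0.18, adjusted p = 0.00747, random pair block 0.0915). Imprinted genes gave 2 higher and 1 lower of 18 (16.7%, 2 to 4 without 1 array, 1 higher and 0 lower with the random pair block), namely Cdkn1c, the sarcoglycan gene Sgce (0.51 ± 0.15, adjusted p = 0.0434, random pair block 0.274) and Plagl1, a zinc finger gene (-0.28 ± 0.06, adjusted p = 0.00689, random pair block 0.207). The Sgce call was lost without Tgif1 OE replicate 1, 3 or 4 or Tgif2 OE replicate 1 or 2 (highest adjusted p 0.124). ATF4 and unfolded protein genes gave 1 higher and 2 lower of 20 (15%, 1 to 4 without 1 array, 0 higher and 0 lower with the random pair block). The serine synthesis gene Psat1 was higher by 0.26 ± 0.06 (adjusted p = 0.00885, random pair block 0.184), and the stress gene Nupr1 lower (-0.64 ± 0.19, adjusted p = 0.0475, random pair block 0.263), although both were below BirA control in each group. A dimmer Psat1 probe set gave 0.18, and the Psat1 call was lost with the mean of the probe sets. The arginine transporter gene Slc7a3 was lower (-0.33 ± 0.09, adjusted p = 0.0329, random pair block 0.256). The Nupr1 call was lost without Tgif1 OE replicate 2, 3 or 4 or Tgif2 OE replicate 1 or 2 (highest adjusted p 0.132) and the Slc7a3 call without Tgif1 OE replicate 3 or 4 or Tgif2 OE replicate 1 or 2 (highest 0.0974). Glycolysis and hypoxia genes gave 2 higher and 0 lower of 16 (12.5%, 0 to 3 without 1 array, 0 higher and 0 lower with the random pair block), the carbonic anhydrase gene Car9 (0.36 ± 0.09, adjusted p = 0.0198, random pair block 0.460) and the glucose transporter gene Slc2a1 (0.26 ± 0.08, adjusted p = 0.0407, random pair block 0.330). The call of Car9 was lost without Tgif1 OE replicate 2 or Tgif2 OE replicate 2 (highest adjusted p 0.0557). That of Slc2a1 was lost with the replicate block (0.0585) and on the 12 arrays of the 3 groups without a block. It was also lost without any 1 array other than Tgif2 OE replicate 3 or 4 (highest 0.117).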

How the data were processed

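The 8 Tgif1 OE and Tgif2 OE arrays and the 4 BirA control arrays were compared. The deposited unit is log2 intensity for each probe set. Per the submitters' processing notes the authors used RMA, and for the Tgif2 OE arrays also limma; the sources used here give no versions. Of 22690 probe sets, 64 controls, 691 with several symbols and 1555 with none were left out. The remaining 20380 covered 12393 genes, each represented by its brightest probe set. No filter on level was used. The 16 columns were quantile-normalized over the gene probe sets.

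Using R 4.3.3, limma 3.58.1 fitted one linear model with a mean for each of 5 groups to the 16 arrays. The fits with a block or with pairs averaged used only the 12 arrays of the Tgif1 OE, Tgif2 OE and BirA control groups. Two-sided moderated tests were adjusted by Benjamini-Hochberg over all genes, and adjusted p-values are from this fit unless another is named. Values after ± are standard errors of differences or SDs of levels. The scripts were tested on simulated data with independent arrays. That simulation held no array-pair effect, so it does not cover the dependence within pairs. The number of arrays limits the precision.

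Arrays with the same replicate number deviated together from their group means (r = 0.332 to 0.556 over 12 comparisons across genes), as did those of the same array pair with other numbers (0.341 to 0.571). By the rule that every such r exceed 0.1, a fit with the number as a block was added, and its values are given where they change a call. Arrays with the same number were no closer than others of the same array pair, and were the best match in 4 of 24 comparisons. The block thus stands for the array pair, and a pairing by number was not shown.

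Genes were named by rule. It takes Tgif1 and Tgif2, the 12 largest differences per direction among called genes whose groups do not overlap, up to 3 called members of each of 29 lists, and 12 lineage and pluripotency genes whether called or not. Added are up to 4 per direction with the groups on opposite sides of BirA control, and up to 4 per direction on the same side and not called between the groups. Some list members outside the rule are named after their values were seen. The members and lists were chosen with earlier results of these data known. Alternatives were other scalings, sample sets, probe set rules, variance settings and blocks, and leaving out each array.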

Additional observations from a re-analysis of the deposited data

Results flagged for a closer look

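In 16 of 303 groups of 4 arrays tested among the named genes, 1 array stood apart from the other 3 by a gap large against the group's range; chance flags about 1 in 20 groups. All values are log2 intensities.

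On Tgif1 OE arrays, replicate 2 was the odd array for Nsmf (7.05, others 7.16 to 7.17), Dab2 (5.32, others 5.69 to 5.74), Cdkn1b (6.93, others 7.21 to 7.25) and Fgf5 (4.66, others 4.14 to 4.18). Replicate 3 was for Slc2a1 (12.28, others 12.34) and Lgals3 (8.43, others 8.38), and replicate 4 for Dcn (5.43, others 5.01 to 5.06). On Tgif2 OE arrays, the odd values were replicate 4 for Sun2 (6.33, others 6.66 to 6.70), replicate 2 for Hesx1 (7.02, others 6.48 to 6.56) and replicate 3 for Kdr (5.96, others 6.11 to 6.13). On BirA control arrays they were replicate 1 for Gbp2b (5.55, others 5.94 to 5.99), Cdkn1a (9.01, others 8.64 to 8.68) and Myl9 (5.42, others 6.05 to 6.15), and replicate 4 for Elf3 (6.97, others 7.09 to 7.10), Lyz2 (4.72, others 4.34 to 4.40) and Prss23 (3.55, others 3.32 to 3.34).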

How the results depend on the processing

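The count of 1235 called genes was 815 with only the 8 arrays compared, 2439 on the deposited values without scaling, 1897 with the replicate block, 2484 with the array pair as a fixed block, 119 with it as a random block (within-pair correlation 0.603), 0 with pairs averaged (1200 genes at an unadjusted p under 0.05) and 1894 in replicates 1 and 2 alone. It was 821 to 1134 when 1 array was left out, with 821 without Tgif2 OE replicate 1 and 823 without Tgif2 OE replicate 2. Median centring gave 1115, the 12 arrays of the 3 groups 902, the mean of probe sets 1227, leaving out dim genes 1060 of 8262, every probe set on its own 1799 of 20380, trended and robust variance 1232 and replicates 3 and 4 alone 1419. Of 80 named genes that were called, 77 stayed called with the replicate block (not Cldn6, Ccng1 and Slc2a1), 54 in every fit without 1 array and 29 with the random pair block. Cldn6, Ccng1 and Slc2a1 were also not called on the 12 arrays of the 3 groups without a block. With only the 8 arrays compared, 21 of the 80 lost their call, among them Gbp2b, Calcr, Tcl1, Dnmt3a and Ccn2. Of 21 named genes not called, 5 were called with the replicate block.

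With the mean of its probe sets Bmpr1a reversed to -0.0329, its 5 probe sets differing in sign. Some changes from BirA control that were small and not called over all arrays took the other sign in replicates 1 and 2 alone. Smad6 on Tgif1 OE arrays went from -0.01 to 0.36. On Tgif2 OE arrays Plk2 went from 0.13 to -0.51 and Ccng1 from 0.14 to -0.29. The cause was not tested. Same-numbered arrays were the best match in 4 of 24 comparisons.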
